A study of Mus musculus with 2 samples.

Results

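The neutrophil-attracting CXC chemokines *Cxcl1*, *Cxcl2*, *Cxcl3* and *Cxcl5* and their receptor gene *Cxcr2* were followed over the cell types of psoriasiform mouse skin. The 5 genes were taken by symbol from the 31053 genes of the feature lists, and all 5 had unique molecular identifiers (UMIs, counts of captured transcripts) in both libraries. The skin came from wild type C57BL/6 mice aged 10 weeks according to the labels, and imiquimod, an agonist of Toll-like receptor 7 that produces psoriasis-like inflammation, had been applied to the ear on 5 consecutive days. Dermis and epidermis were separated, sorted and loaded as 1 droplet single-cell library each. No untreated library was analysed here, so the levels describe inflamed skin and cannot be read as induction by imiquimod. With 1 library per layer there was no replicate, hence no test. The ranges in parentheses are exact 95% intervals, which account for the counting of molecules and for no other source of error.

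CXC chemokines that carry the motif glutamate-leucine-arginine before their first cysteine pair bind CXCR2, a G protein-coupled receptor best known from neutrophils, and draw these cells out of venules and through tissue. The ligands are produced by many cells, among them epithelium, endothelium, fibroblasts and myeloid cells, after signals such as interleukin-1, tumour necrosis factor and IL-17 that act through NF-kappaB and through stability of the mRNA. In psoriasis, neutrophils cross the dermis and gather in the epidermis. CXCR2 is internalised after it binds ligand, a step that transcript counts do not show.

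The 4 ligand genes lie together on mouse chromosome 5 (GRCm38 coordinates, plus strand) within 146579 bases. *Cxcl5* (ENSMUSG00000029371) occupies 90759360 to 90761624, *Cxcl3* (ENSMUSG00000029379) 90786103 to 90789600, *Cxcl1* (ENSMUSG00000029380) 90891241 to 90893115 and *Cxcl2* (ENSMUSG00000058427) 90903871 to 90905938. *Cxcr2* (ENSMUSG00000026180) lies on chromosome 1 at 74153989 to 74161246, also on the plus strand. The stretch that makes the ligands a family is shown first. These 30-base coding windows, all in exon 2, hold the codons of glutamate, leucine and arginine in capitals, and they are at chr5:90891478-90891507, chr5:90904124-90904153, chr5:90786350-90786379 and chr5:90759709-90759738 in the order printed, 5′ to 3′.
Cxcl1: atcgccaatGAGCTGCGCtgtcagtgcctg
Cxcl2: gtggccagtGAACTGCGCtgtcaatgcctg
Cxcl3: gtggccagtGAGCTGCGCtgtcagtgcctg
Cxcl5: gccgcaacgGAGCTGCGTtgtgtttgctta
*Cxcl2* and *Cxcl3* differ little here, and over their whole transcripts the longest identical run was 110 bases. That run ends 939 bases before the end of the *Cxcl2* transcript and 850 bases before that of *Cxcl3*. Within the last 300 bases, where this 3′ chemistry mostly reads, the longest run shared by any pair of the 4 ligand genes was 16 bases. *Cxcr2* was not compared over these bases. How often reads were assigned to the wrong member was not tested.

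The promoters of *Cxcl1*, *Cxcl2* and *Cxcl3* are shown because these 3 ligands were detected in the same keratinocytes and because all 3 hold a single kappaB palindrome. They are the 250 bases before the RefSeq start site (GRCm38.p6, plus strand), at chr5:90890995-90891244, chr5:90903649-90903898 and chr5:90785851-90786100, with the palindrome and a TATA box in capitals.
Cxcl1: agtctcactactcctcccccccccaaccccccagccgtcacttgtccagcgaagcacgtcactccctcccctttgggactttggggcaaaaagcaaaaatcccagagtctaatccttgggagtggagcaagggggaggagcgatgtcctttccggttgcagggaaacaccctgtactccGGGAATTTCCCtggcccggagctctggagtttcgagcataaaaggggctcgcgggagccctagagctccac
Cxcl2: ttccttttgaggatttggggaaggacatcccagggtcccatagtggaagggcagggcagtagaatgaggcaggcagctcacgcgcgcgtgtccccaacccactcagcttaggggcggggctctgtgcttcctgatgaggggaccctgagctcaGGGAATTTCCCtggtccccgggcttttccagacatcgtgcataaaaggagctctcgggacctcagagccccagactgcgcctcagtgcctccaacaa
Cxcl3: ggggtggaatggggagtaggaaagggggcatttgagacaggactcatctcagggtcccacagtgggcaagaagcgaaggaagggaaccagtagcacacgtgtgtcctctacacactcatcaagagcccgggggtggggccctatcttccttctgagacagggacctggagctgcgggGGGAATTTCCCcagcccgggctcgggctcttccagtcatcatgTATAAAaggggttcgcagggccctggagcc
The 11-base stretch GGGAATTTCCC begins 71, 97 and 73 bases before the start of *Cxcl1*, *Cxcl2* and *Cxcl3*. It counts as 2 overlapping matches to the kappaB consensus, 1 on each strand. That consensus occurred on either strand in 3.90% of 32851 RefSeq promoters of the same length. The letters TATAAA were present in *Cxcl3* alone, 30 to 25 bases before the start, and in 12.4% of all promoters. The AP-1 letters TGANTCA were in none of the 3 and in 6.75% of all promoters. The *Cxcr2* promoter held no match to the 3 motifs.

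The dermal library held 4747 cells after the filter, with a median of 7010 UMIs, and the epidermal library 4173 cells with a median of 25918. Of all barcodes 45 occurred in both libraries, 30 of them among cells kept. The labels speak of live cells for both layers, whereas the methods of the study describe a sort for CD45+ dermal cells. The dermal library nevertheless held 393 fibroblast-like cells (*Col1a1*, *Pdgfra*, *Dcn*) and 47 endothelial cell-like cells (*Pecam1*, *Cdh5*), so the sort, which is not described for the epidermis, can set any share of a dermal gene. Cell types were gated on marker genes that did not include the 5 genes, and a cell type is called "-like" for that reason. Of the 8920 cells, 1283 had no type, and in 403 the best type score lay within 0.1 of the score that a type needed.

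The ligands divided by source. In the dermis, *Cxcl5* was a fibroblast transcript, *Cxcl1* was highest in endothelial cell-like and fibroblast-like cells, and *Cxcl2* and *Cxcl3* were highest in neutrophil-like cells. In the epidermis, basal keratinocyte-like cells held most UMIs of *Cxcl1*, *Cxcl3* and *Cxcl5*, while the highest levels of *Cxcl2* and *Cxcl3* were again in neutrophil-like cells. *Cxcr2* was highest in neutrophil-like cells of both layers, followed by basophil-like cells.

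**Figure D1:**
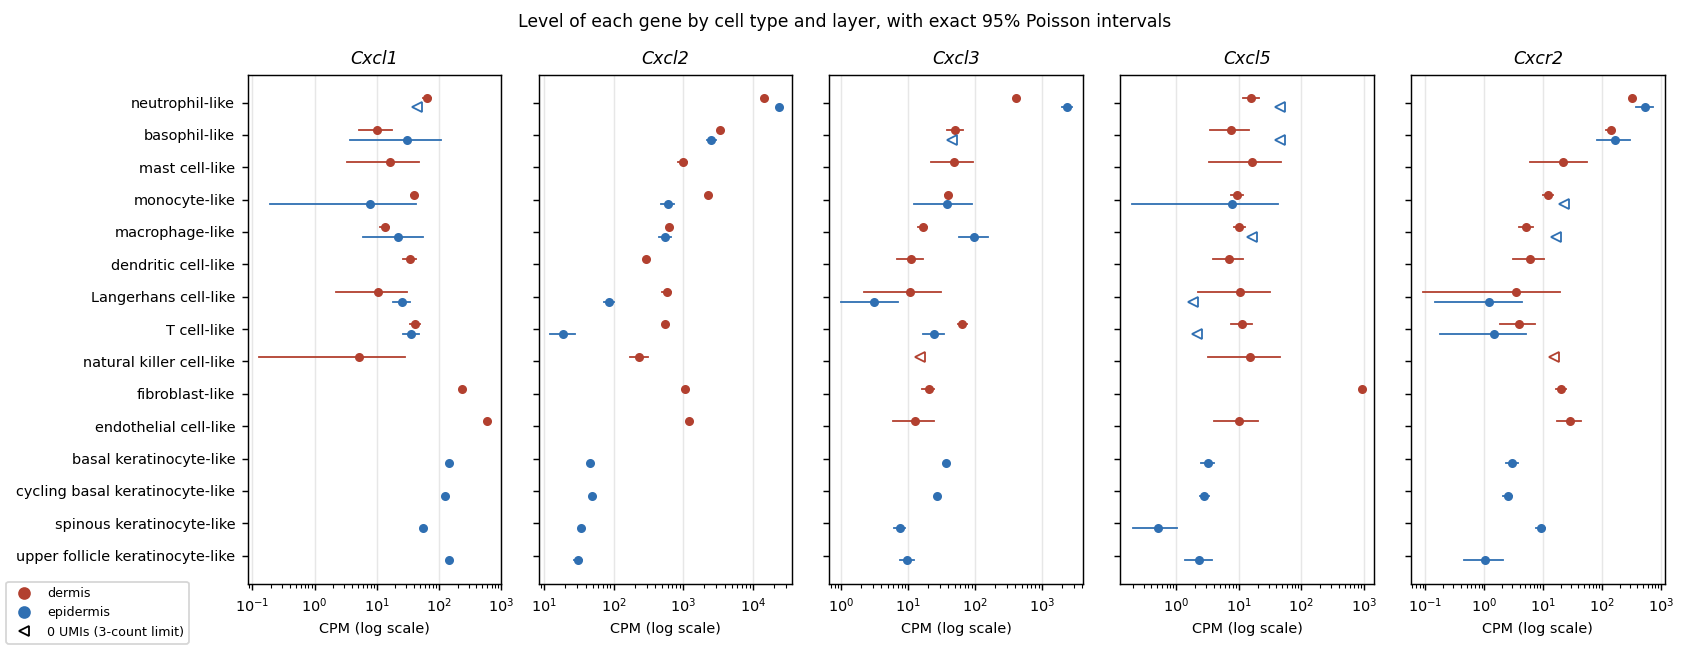
Level of each gene, as counts of its UMIs scaled to a common total (CPM, log scale), by cell type in dermis (red) and epidermis (blue), with exact 95% Poisson intervals and open triangles at the limit of 3 counts where a type had 0 UMIs. Fibroblast-like cells stand alone for *Cxcl5* at 919 CPM, and neutrophil-like cells lead *Cxcl2*, *Cxcl3* and *Cxcr2* in both layers.

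*Cxcl5*, a ligand of CXCR2 made by stromal and epithelial cells, came in the dermis almost wholly from fibroblast-like cells. Its level in fibroblast-like cells, as UMIs of the gene scaled to a common total of UMIs (CPM), was 919 CPM (891 to 947). Every other dermal type of at least 20 cells lay between 7.06 CPM in dendritic cell-like and 16.2 CPM in mast cell-like cells, with overlapping intervals among neighbours. Fibroblast-like cells held 91.9% of the 4629 dermal *Cxcl5* UMIs. The level was 87.9-fold (78.2 to 99.1) that of the other typed dermal cells. After each cell was thinned to 1000 UMIs, 14.9% of fibroblast-like cells had a *Cxcl5* UMI (11.5 to 18.9), against 1.10% of T cell-like cells, which served as background, and 28.8% and 10.4% before thinning. Medians were 10052 and 6980.5 UMIs per cell in these types.

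Few fibroblast-like cells carried that signal. A *Cxcl5* UMI was absent in 280 of 393 cells, and the richest 39 cells held 90.8% of the UMIs. Of the 393 fibroblast-like cells 332 lay in 1 cluster and 42 in another, and cluster levels were taken over all cells of a cluster. The smaller cluster (53 cells, led by *Chil1*, *Cytl1* and *Myoc*) had 1304 CPM (1216 to 1397). The larger (374 cells, led by *Coch*, *Rarres2* and *Tnc*) had 799 CPM (772 to 826). The level of the smaller cluster rested on 1 cell with 342 of 814 UMIs. Without the richest cell of each cluster the levels were 823 and 717 CPM. Cells with a *Coch* UMI, which encodes cochlin, a secreted matrix protein, had 846 CPM (812 to 881), and those without had 1030 CPM (984 to 1077). *Coch* was also a gate marker of fibroblasts, and this split was made without thinning. Without the richest cell of each group the levels were 719 and 839 CPM. *Cxcl1* was 268 CPM (249 to 288) in the 223 cells with *Coch* and 174 CPM (155 to 194) in the 170 cells without, and 232 and 138 CPM without the richest cell of each. Median UMIs per cell were 10277 and 8863.5, and *Retnlg*, a neutrophil transcript, was 937 and 569 CPM. Its part in the difference was not tested. In the epidermis *Cxcl5* was low, with 3.17 CPM in basal, 2.82 in cycling basal, 2.34 in upper follicle and 0.50 in spinous keratinocyte-like cells, and the first 3 intervals overlapped.

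**Figure D2:**
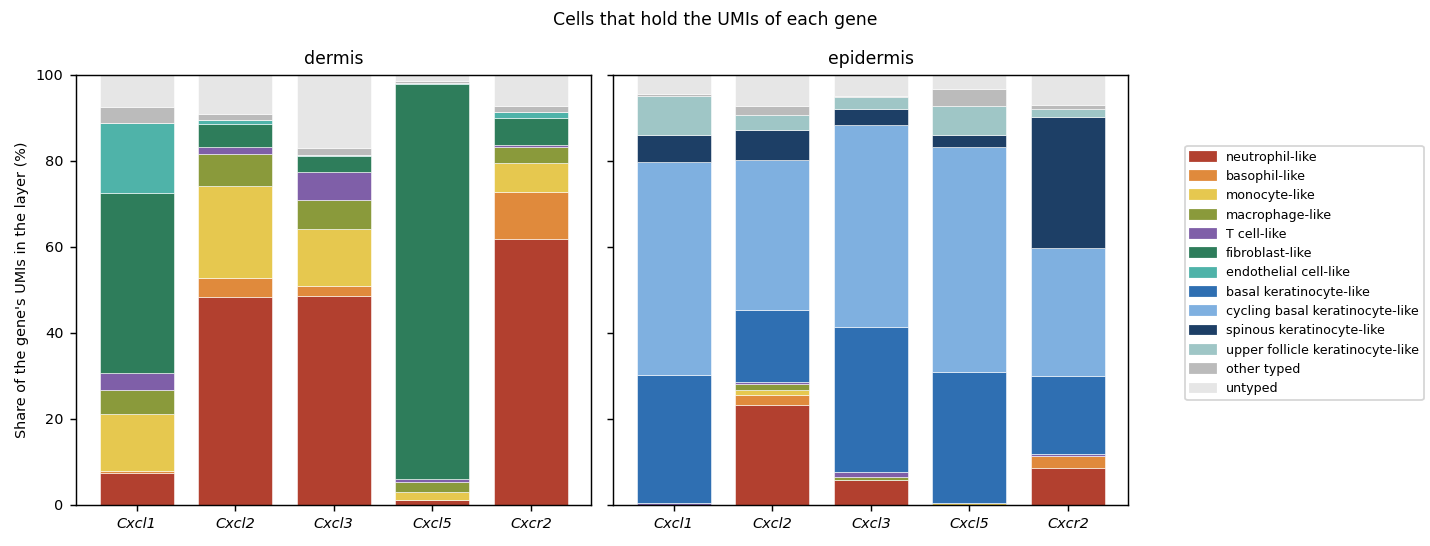
Share of the UMIs of each gene (%, vertical axis) held by each cell type in dermis (left) and epidermis (right), with cells of no type in light grey. Fibroblast-like cells fill 91.9% of the dermal *Cxcl5* bar, and basal and cycling basal keratinocyte-like cells fill most of the epidermal *Cxcl1*, *Cxcl3* and *Cxcl5* bars. A share depends on all the UMIs that a type holds as well as on its level of the gene.

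*Cxcl1*, the ligand classically released by epithelium and endothelium, was highest in structural cells of both layers. In the dermis it reached 598 CPM (542 to 658) in endothelial cell-like and 231 CPM (217 to 245) in fibroblast-like cells, while neutrophil-like cells had 64.0 CPM (55.2 to 73.8). T cell-like cells had 41.2, monocyte-like 39.9 and dendritic cell-like 33.8 CPM, with overlapping intervals. The remaining types lay between 5.12 and 16.2 CPM. Fibroblast-like cells held 41.7% of the dermal UMIs, endothelial cell-like cells 16.3% and monocyte-like cells 13.3%.

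The endothelial level rested on few cells. A *Cxcl1* UMI was present in 17 of 47 endothelial cell-like cells, and the richest cell held 186 of 418 UMIs. Without it the level was 349 CPM (305 to 396), and without the 2 richest cells it was 147 CPM (119 to 181), below the 188 CPM (175 to 201) of fibroblast-like cells without their 2 richest. The rank of endothelial cell-like cells above fibroblast-like cells was therefore carried by 2 cells. The 36 cells of the cluster led by *Plvap*, *Fabp4* and *Egfl7*, blood vessel genes that include the adhesion gene *Selp* in the top 10, had 814 CPM (737 to 897), or 477 CPM without the richest cell. The 17 cells led by *Ccl21a* and *Lyve1*, genes of lymphatic endothelium, had 30.7 CPM (9.98 to 71.7), from 5 UMIs, 4 of them in 1 cell.

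In the epidermis *Cxcl1* was spread over the whole basal compartment. Upper follicle keratinocyte-like cells had 146 CPM (137 to 154) and basal keratinocyte-like cells 143 CPM (139 to 148), which did not differ beyond counting error. Cycling basal keratinocyte-like cells had 124 CPM (121 to 127), and spinous keratinocyte-like cells, the layer that has begun to differentiate, had 54.6 CPM (50.8 to 58.6). The T cell-like, basophil-like, Langerhans cell-like and macrophage-like cells of the epidermis lay between 21.9 and 36.0 CPM, monocyte-like cells had 1 UMI, and neutrophil-like cells had 0 UMIs, which allows up to 44.9 CPM. Basal and cycling basal cells together held 79.2% of the 12209 UMIs. Their levels were only 1.32-fold (1.27 to 1.38) and 1.12-fold (1.08 to 1.16) those of the other typed epidermal cells. At 1000 UMIs per cell, 11.5% of basal (9.43 to 13.8), 10.7% of cycling basal, 9.39% of upper follicle and 3.35% of spinous keratinocyte-like cells had a *Cxcl1* UMI, beside 3.64% of T cell-like cells. At this depth the share in spinous cells was no higher than that in T cell-like cells. Their pooled level of 54.6 CPM was above the 36.0 CPM (26.7 to 47.5) of T cell-like cells. Before thinning the share in basal cells was 69.4%.

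*Cxcl2*, the ligand that myeloid cells make in quantity, was highest in the cells that carried the receptor. Dermal neutrophil-like cells had 14557 CPM (14420 to 14694), basophil-like cells 3369 CPM (3265 to 3475) and monocyte-like cells 2260 CPM (2229 to 2293). Endothelial cell-like cells had 1217 CPM (685 without the richest cell) and fibroblast-like cells 1053 CPM. The levels in mast cell-like (990 CPM), macrophage-like (636), Langerhans cell-like (580), T cell-like (554), dendritic cell-like (296) and natural killer cell-like cells (235) followed. Of 89699 dermal UMIs, neutrophil-like cells held 48.2%, monocyte-like cells 21.4%, macrophage-like cells 7.40%, fibroblast-like cells 5.44% and basophil-like cells 4.44%.

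Nearly every neutrophil-like cell carried *Cxcl2*. The UMI was absent in 14 of 635 cells, the median cell had 12548 CPM, and the cells at the tenth and ninetieth percentile had 1828 and 37733 CPM. In basophil-like cells the median was 396 CPM and the ninetieth percentile 7850, and in monocyte-like cells 448 and 6564. After thinning, 96.0% of neutrophil-like cells (94.2 to 97.4), 48.6% of monocyte-like and 43.8% of basophil-like cells had a *Cxcl2* UMI. The share in T cell-like cells of the same library was 25.4% (20.3 to 31.0). Dendritic cell-like (23.1%) and natural killer cell-like cells (34.5%, 17.9 to 54.3) had shares near that value. How much of these shares was free RNA was not tested, so they do not show that these types transcribed the gene.

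*Retnlg*, 1 of the markers that gated neutrophils, gave a view of neutrophil RNA in the droplets of other cells. RNA from 1 source keeps its genes in 1 ratio. That holds for free RNA and for a neutrophil caught in the same droplet, and doublets were left in. Per 100 *Retnlg* UMIs, dermal neutrophil-like cells had 101 *Cxcl2* UMIs (99.7 to 102). Fibroblast-like cells had 133, endothelial cell-like 218, macrophage-like 323, T cell-like 350, monocyte-like 678 and basophil-like cells 1762. The values of monocyte-like and basophil-like cells stood farthest above the ratio in neutrophils, and that of fibroblast-like cells stood closest to it. Per 100 UMIs of all 9 neutrophil markers the order changed for basophil-like cells, with 59.6 *Cxcl2* UMIs (57.2 to 61.9) against 67.6 in neutrophil-like cells, while monocyte-like cells had 286. In basophil-like cells *Hdc*, the histamine-forming enzyme gene, made up 91.5% of the UMIs of that list. Without *Hdc* the values were 703 in basophil-like, 305 in monocyte-like and 70.4 in neutrophil-like cells.

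Epidermal *Cxcl2* had a few rich cells and a large, low compartment. The 29 neutrophil-like cells had 24031 CPM (22871 to 25236) and held 23.1% of the 6949 UMIs. Basophil-like cells had 2538 CPM, from 5 of 22 cells, monocyte-like 598 and macrophage-like cells 554 CPM. Langerhans cell-like cells had 86.6 CPM, and T cell-like cells had 18.7 CPM, the lowest level in this layer. Cycling basal keratinocyte-like cells had 49.7 CPM (47.7 to 51.7), basal 46.2 (43.6 to 48.9), spinous 34.4 (31.4 to 37.7) and upper follicle 31.2 CPM (27.4 to 35.4). Cycling basal and basal cells held 35.0% and 16.8% of the UMIs.

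*Cxcl3*, the close relative of *Cxcl2*, shared its highest level with it, in neutrophil-like cells of both layers. In the dermis neutrophil-like cells had 416 CPM (393 to 440) and held 48.5% of 2544 UMIs. T cell-like cells had 64.8 CPM (55.3 to 75.5), basophil-like cells 50.8, mast cell-like cells 48.7 and monocyte-like cells 39.5 CPM, each overlapping the next. Fibroblast-like cells had 20.3 CPM, and the other types were lower or at 0. Untyped cells held 17.2% of the UMIs. A cluster of 40 untyped cells led by *Ccl22*, *Fscn1* and *Il4i1*, with *Ccr7* in its top 10, genes known from migrating dendritic cells, had 225 CPM (187 to 269), but 1 cell held 121 of its 124 UMIs and the level without it was 5.60 CPM. The T cell-like cluster led by *Il17f*, *Il22* and *Il17a* had 84.8 CPM (71.7 to 99.5) from 26 of 136 cells, and 57.7 CPM without the richest cell. Its epidermal counterpart, led by the same 3 genes, had 76.0 CPM (50.5 to 110) from 7 of 52 cells, and 36.3 CPM without the richest cell. Per 100 *Retnlg* UMIs, T cell-like cells had 40.9 *Cxcl3* UMIs (33.9 to 49.2) and neutrophil-like cells 2.89 (2.73 to 3.06).

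*Cxcl3* was less evenly spread over neutrophils than *Cxcl2*. A UMI was absent in 417 of 635 dermal neutrophil-like cells, and the richest 64 cells held 72.1% of *Cxcl3* but 35.7% of *Cxcl2* and 35.9% of *Cxcr2*. After thinning 18.5% of them had a *Cxcl3* UMI (15.5 to 21.8), against 3.31% of T cell-like cells (1.52 to 6.19). All 112 of these *Cxcl3*-positive cells also had *Cxcl2*, as did 95.1% of the others.

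**Figure D3:**
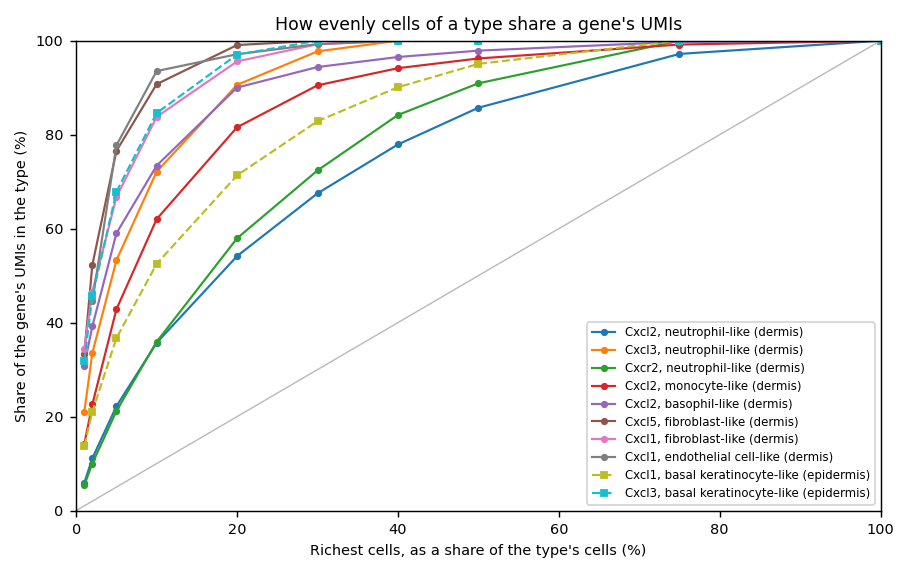
Share of a gene's UMIs in a cell type (%, vertical axis) held by the cells richest in it, taken as a share of the type's cells (%, horizontal axis), for dermis (circles) and epidermis (squares), with an even division as the grey line. *Cxcl2* and *Cxcr2* in neutrophil-like cells lie nearest to the even line, and at 10% of cells *Cxcl5* in fibroblast-like cells reaches 90.8%.

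In the epidermis *Cxcl3* was a basal keratinocyte transcript by amount and a neutrophil transcript by level. Neutrophil-like cells had 2393 CPM (2036 to 2793) from 15 of 29 cells and held 5.66% of 2827 UMIs. Basal and cycling basal keratinocyte-like cells had 37.6 CPM (35.3 to 40.1) and 27.2 CPM (25.8 to 28.7) and together held 80.7%. These levels were 1.61-fold (1.49 to 1.74) and 1.02-fold (0.94 to 1.10) those of the other typed epidermal cells. Upper follicle and spinous keratinocyte-like cells had 9.61 and 7.55 CPM. The 32 macrophage-like cells had 98.7 CPM, from 3 cells.

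Within keratinocytes the ligands did not peak in the same clusters. The cluster led by *Areg*, *Il24* and *Stfa2* (336 cells), with the neutrophil growth factor *Csf3* in its top 10, had 172 CPM of *Cxcl1* (166 to 179), 104 of *Cxcl2* (99.2 to 110) and 95.6 of *Cxcl3* (90.7 to 101). The cluster led by the immediate early genes *Atf3*, *Btg2* and *Dusp1* (297 cells) had 191 CPM of *Cxcl1* (182 to 200) and 3.46 of *Cxcl3* (2.33 to 4.94). The upper follicle cluster led by *Aldh3a1* (320 cells) had 215 CPM of *Cxcl1* (206 to 224). Another upper follicle cluster, led by *Cst6*, *Defb6* and *Klk7* (30 cells), had 34.9 CPM (21.6 to 53.4). *Cxcl5* was highest in the cluster led by *Il19*, *Pi15* and *Ly6c1* at 5.30 CPM (4.32 to 6.42). Its interval overlapped those of the *Aldh3a1* cluster (4.71 CPM) and the *Areg* cluster (4.10 CPM). The cluster led by the spinous keratins *Krt10* and *Krt1* had the lowest *Cxcl1* of these clusters, at 29 CPM (25 to 33.5). Its interval overlapped that of the *Cst6* cluster.

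**Figure D4:**
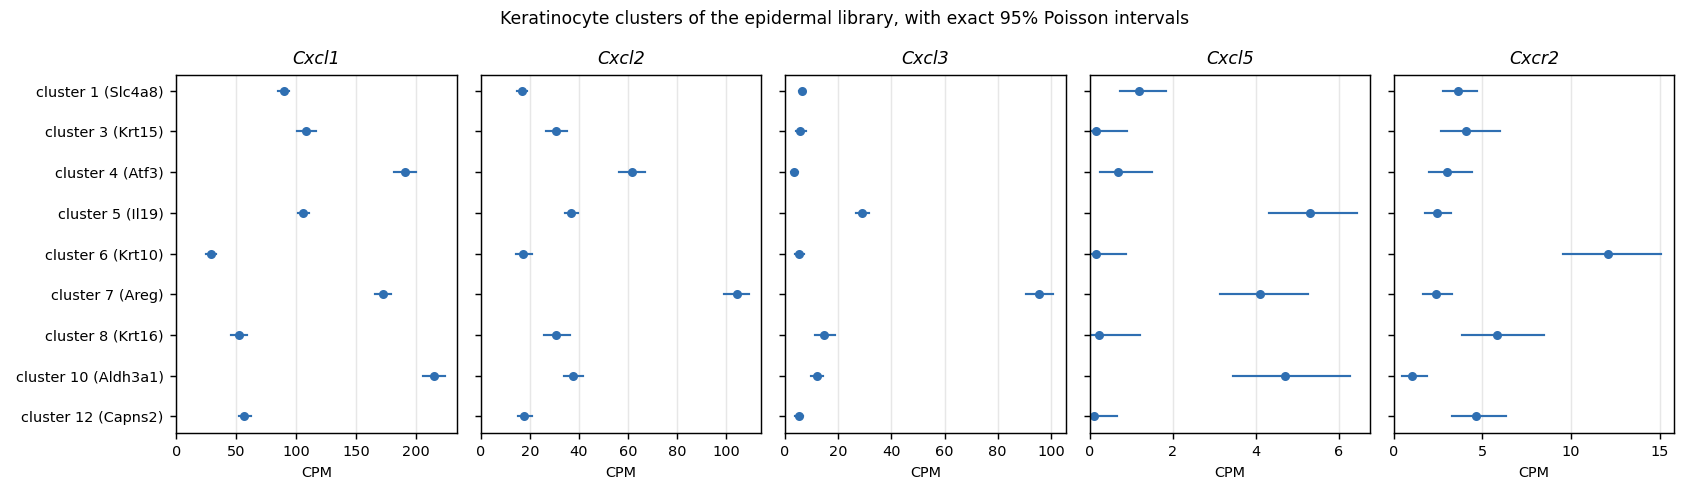
Level of each gene (CPM, horizontal axes) in 9 keratinocyte clusters of the epidermal library, with exact 95% Poisson intervals, each cluster named by its leading gene. *Cxcl3* stands out in the *Areg* cluster at 95.6 CPM, whereas *Cxcr2* stands out in the *Krt10* cluster at 12.1 CPM.

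In keratinocytes the share of cells with *Cxcl1* or *Cxcl2* was higher among cells that had another of *Cxcl1*, *Cxcl2* and *Cxcl3* than among cells that lacked it, and for *Cxcl5* the shares did not differ beyond counting error. After 2048 basal or cycling basal keratinocyte-like cells were thinned to 10000 UMIs, *Cxcl2* was present in 25.1% of cells with *Cxcl1* (22.5 to 27.9) and 11.9% of cells without (10.0 to 14.1). Cells with *Cxcl3* had *Cxcl1* in 68.5% (62.4 to 74.1) and those without in 47.0% (44.6 to 49.3). Cells with *Cxcl3* had *Cxcl2* in 32.3% (26.7 to 38.4), against 16.5% (14.8 to 18.3). The 43 cells with *Cxcl5* had *Cxcl1* in 58.1% (42.1 to 73.0), and those without in 49.5% (47.3 to 51.7), with overlapping intervals. Among dermal fibroblast-like cells, at 1000 UMIs, 27.8% of 36 cells with *Cxcl1* had *Cxcl5* (14.2 to 45.2) and 13.6% of those without (10.2 to 17.7), with overlapping intervals.

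*Cxcr2*, the receptor, was a transcript of neutrophil-like cells and basophil-like cells. Dermal neutrophil-like cells had 320 CPM (300 to 341) and basophil-like cells 140 CPM (120 to 164). Endothelial cell-like (28.6), mast cell-like (21.6) and fibroblast-like cells (20.5) had overlapping intervals, monocyte-like cells had 12.3 CPM, and the remaining dermal types had at most 6.05 CPM. Neutrophil-like cells held 61.9% of 1534 dermal UMIs and basophil-like cells 10.8%. In the epidermis neutrophil-like cells had 538 CPM (377 to 745), basophil-like cells 167 CPM (83.4 to 299) and spinous keratinocyte-like cells 9.13 CPM (7.61 to 10.9). Basal, cycling basal and upper follicle keratinocyte-like cells had 3.01, 2.53 and 1.04 CPM.

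At 1000 UMIs per cell *Cxcr2* was found in 28.4% of dermal neutrophil-like cells (24.8 to 32.2) and 14.9% of basophil-like cells (10.7 to 19.9). It was in 0 of 272 T cell-like cells, which allows a share of up to 1.10%. The unthinned shares were 63.6%, 43.3% and 2.16%, with medians of 3600, 4357.5 and 6980.5 UMIs. In fibroblast-like cells the thinned share was 1.31% (0.43 to 3.03).

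Per 100 *Retnlg* UMIs, dermal neutrophil-like cells had 2.22 *Cxcr2* UMIs (2.08 to 2.37). Fibroblast-like (2.59), macrophage-like (2.63) and T cell-like cells (2.48) had intervals that held the neutrophil value, so their *Cxcr2* cannot be told apart from neutrophil RNA. Whether such RNA was free or came from doublets with neutrophils was not tested. Monocyte-like (3.70, 3.02 to 4.50) and endothelial cell-like cells (5.13, 3.10 to 8.03) lay above it. Among endothelial cell-like cells the *Ccl21a* cluster had 19 *Cxcr2* UMIs beside 2009 CPM of *Retnlg*, and the *Plvap* cluster had 1 beside 119 CPM. Basophil-like cells had 73.5 per 100 (59.7 to 90.1). Per 100 UMIs of the 9 markers they had 2.48 (2.12 to 2.90), against 1.48 (1.39 to 1.58) in neutrophil-like cells, and 29.3 against 1.54 without *Hdc*. Monocyte-like cells had 1.56 (1.28 to 1.90) per 100 of the 9 markers, an interval that held the neutrophil value, and endothelial cell-like cells had 2.67 (1.62 to 4.15).

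**Figure D5:**
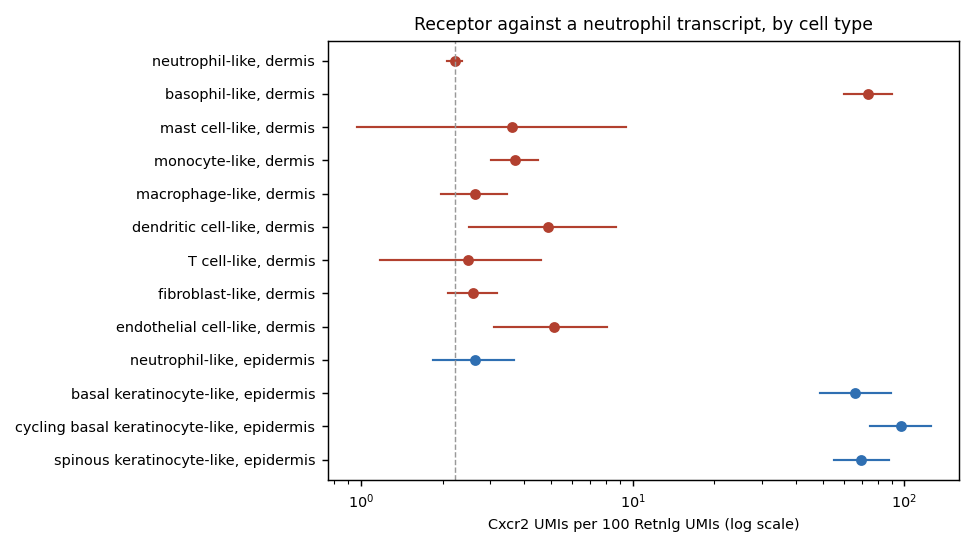
*Cxcr2* UMIs per 100 *Retnlg* UMIs (log scale) by cell type in dermis (red) and epidermis (blue), with exact 95% intervals and the ratio of dermal neutrophil-like cells as a dashed line. Types with few UMIs of the 2 genes are not shown. Most dermal types shown lie near the line at 2.22, while basophil-like cells lie at 73.5 and keratinocyte-like cells between 66.1 and 96.9.

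In the epidermis the *Cxcr2* UMIs of keratinocytes were few and were not in the ratio seen in neutrophils. Spinous keratinocyte-like cells had 127 UMIs in 89 of 486 cells and 69.4 per 100 *Retnlg* UMIs (54.9 to 87.5), against 2.64 (1.84 to 3.67) in epidermal neutrophil-like cells. The level in spinous cells was 3.03-fold that in basal cells, and the *Krt10* and *Krt1* cluster had 12.1 CPM (9.54 to 15.1). Spinous keratinocyte-like cells held 30.5% of the 417 epidermal UMIs, against 8.63% for neutrophil-like cells. Cycling basal cells had 124 UMIs and basal cells 76. Per 100 *Retnlg* UMIs these were 96.9 (75.1 to 125) and 66.1 (48.8 to 89.1), so the ratio was not particular to spinous cells. After thinning 1.26% of spinous cells had a UMI (0.46 to 2.71), beside 0 of 494 T cell-like cells, which allows up to 0.61%.

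All 5 genes passed the minimum of 20 UMIs for the comparison of each type with the rest of its library. Neutrophil-like cells stood above the other typed cells by more than 2-fold for *Cxcl2* (11.7-fold, 11.6 to 11.9), *Cxcl3* (14.7-fold, 13.5 to 16.1) and *Cxcr2* (20.8-fold, 18.6 to 23.3) in the dermis, that is for 3 of 5 genes where 6.71% of 13004 genes did so. *Cxcl5* was lower, at 0.11-fold, as were 48.3% of genes, and *Cxcl1* at 0.91-fold (0.78 to 1.05) was neither. In the epidermis the same 3 genes were higher, *Cxcl2* 494-fold, *Cxcl3* 94.3-fold and *Cxcr2* 152-fold, where 12.1% of 13393 genes were. Fibroblast-like cells were higher for *Cxcl5* and for *Cxcl1* (5.18-fold, 4.77 to 5.62), beside 20% of genes, and lower for the other 3 members, beside 15.7%. Endothelial cell-like cells were higher for *Cxcl1* alone (10.2-fold, 9.12 to 11.3), beside 21.5% of genes, and basophil-like cells for *Cxcr2* alone (3.65-fold, 3.09 to 4.29), beside 9.33%. Spinous keratinocyte-like cells were higher for *Cxcr2* (3-fold, 2.41 to 3.73), beside 3.55% of genes, and lower for the 4 ligands, beside 15.2%. Monocyte-like cells were higher for none of the members, beside 2.33% of genes, and lower for *Cxcl1* (0.50-fold), *Cxcl5* (0.05-fold) and *Cxcr2* (0.24-fold), beside 27.2%. Basal and cycling basal keratinocyte-like cells were higher for none of the members, beside 0.747% and 0.874% of genes. Their folds were 1.32 and 1.12 for *Cxcl1*, 1.61 and 1.02 for *Cxcl3* and 1.35 and 1.23 for *Cxcl5*. Cycling basal cells were lower for *Cxcr2* (0.49-fold), beside 11.7%.

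Receptor and ligand transcripts met in the same neutrophils. The 404 dermal neutrophil-like cells with a *Cxcr2* UMI had 13656 CPM of *Cxcl2* and the 231 without had 17218, with medians of 4447.5 and 2588 UMIs per cell. When the split was made on cells thinned to 1000 UMIs, with medians of 3732 and 3727, the levels were 13450 and 14941 CPM, a ratio of 0.90. *Cxcl3* was 399 CPM in cells with and 466 CPM in cells without *Cxcr2* before thinning, a ratio of 0.86, and 264 and 472 CPM in the thinned split, a ratio of 0.56. At 1000 UMIs, 91.9% of cells with *Cxcr2* also had *Cxcl2* (86.7 to 95.5), against 97.7% of those without (95.8 to 98.9). In basophil-like cells *Cxcl2* was 1590 CPM in 37 cells with and 3654 CPM in 212 cells without a *Cxcr2* UMI after thinning. The share of cells with *Cxcl2* went the other way, at 54.1% (36.9 to 70.5) and 42.0% (35.3 to 48.9), with overlapping intervals. The richest 3 of 254 basophil-like cells held 30.9% of their *Cxcl2* UMIs.

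Cell types present in both layers did not carry the genes alike. *Cxcl3* in neutrophil-like cells was 5.75-fold higher in the epidermis (4.85 to 6.79), and 3.48-fold with clusters in place of gates. *Cxcl2* was 1.65-fold higher (1.57 to 1.74) and *Cxcr2* 1.68-fold higher (1.17 to 2.35) by the gate, but 0.79-fold and 0.82-fold by cluster, so neither has a settled direction. Epidermal neutrophil-like cells numbered 29 and had a median of 2167 UMIs, against 3600 in the dermis. *Cxcl2* was lower in the epidermis in monocyte-like (0.26-fold, 0.21 to 0.33), Langerhans cell-like (0.15-fold, 0.12 to 0.19) and T cell-like cells (0.03-fold, 0.02 to 0.05). The T cell-like cells were of different clusters, led by *Tnfrsf4* or *Il17f* in the dermis and in the epidermis mostly (461 of 505 cells) by *Cd7* and *Cd3g*. Of the 23 dermal Langerhans cell-like cells 9 lay in a macrophage-like cluster led by *Cd72* and 7 in an untyped cluster led by *Klrd1* and *Cd209a*, whereas 153 of 185 epidermal ones lay in the cluster led by *Mfge8* and *Cd74*. The 971 dermal monocyte-like cells lay mainly in 2 clusters and the 30 epidermal ones in 1. *Retnlg* was lower too, from 333 to 15.3 CPM, 124 to 3.66 CPM and 158 to 3.60 CPM in these types, and its part in the difference was not tested. In basophil-like cells *Cxcr2* did not differ beyond counting error (1.19-fold, 0.58 to 2.18), while the 0.75-fold value of *Cxcl2* became 0.45-fold without the richest cell and 0.0055-fold with a stricter gate.

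The other genes of the pathway are given for the types above, beside the share of all genes called in that type. Of 11 trafficking and adhesion genes 8 were higher past 2-fold in dermal neutrophil-like cells and none lower, beside 6.71% and 48.3% of all genes, with a median log2 ratio of 2.12 where that of all genes was -0.94. They included *Fpr1*, a receptor for formylated bacterial peptides (460 against 23.0 CPM in other typed cells), *C5ar1*, the complement C5a receptor (784 against 91.2), *Ccr1* (749 against 87.2) and *Csf3r*, which also served as a gate marker. The second interleukin-8 type receptor gene *Cxcr1* had 21.9 CPM against 0.55. Among 8 upstream cytokines tested, 4 were higher and 3 lower, with *Il1b* at 6421 against 911 CPM, *Tnf* at 667 against 73.1, the IL-36 gamma gene, listed as *Il1f9*, at 360 against 11.4 and *Il1a* at 86.2 against 5.74. Of 5 genes listed under decay of chemokine mRNA, *Zfp36*, *Zc3h12a* and *Tnfaip3* were higher and none was lower. Of these *Tnfaip3* acts on kappaB signalling rather than on mRNA decay. Of 8 kappaB and IL-17 signalling genes, *Nfkbiz*, *Nfkbia* and *Cebpb* were higher and *Traf3ip2* lower. Of 8 upstream receptors 3 were higher and 3 lower, and of 4 other CXCR2 and CXCR1 ligands and receptors that were tested 1 was higher and 3 were lower. Of 9 other neutrophil factors 5 were higher and 3 lower, among the former the alarmin *S100a8*, at 80303 against 2750 CPM.

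Fibroblast-like cells, the *Cxcl5* source, were higher for 3 of 8 upstream receptors and lower for 1, beside 20% and 15.7% of all genes. These were *Il1r1*, the interleukin-1 receptor (105 against 6.78 CPM), *Il17rc*, a subunit of the IL-17 receptor (14.9 against 0.96), and *Il1rl2*, the IL-36 receptor (15.1 against 1.71). The adaptor gene of IL-17 signalling *Traf3ip2* (14.2 against 3.29) and *Cebpd* (555 against 151) were higher too, as were 3 of 9 neutrophil factors, *Cxcl12*, *Saa3* and *Lcn2*, with 4 lower and with *Saa3* at 22068 against 1376 CPM. All 11 trafficking genes were lower. None of the 8 upstream cytokines was higher and 6 were lower.

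Endothelial cell-like cells, a *Cxcl1* source, also had *Ackr1*, the atypical receptor that carries chemokines across venules, at 421 against 5.68 CPM, while the other 3 tested genes of its list were lower. *Csf3*, which encodes the neutrophil growth factor, was 435 against 7.61 CPM, as the only 1 of 9 neutrophil factors that was higher, with 5 lower. Of 11 trafficking genes 10 were lower and of 8 cytokines 7 were lower, with none higher in either list. In these cells 21.5% of all genes were higher and 22.6% lower. Upstream receptors that were higher were *Tnfrsf1a* (269 against 91.7), *Il17rc* and *Il1r1*, 3 of 8, with 3 lower. Basophil-like cells had *Il6* at 2521 against 34.7 CPM and *Osm*, an IL-6 family cytokine, at 1158 against 56.9, 2 of 8 cytokines higher with 4 lower, beside 9.33% and 40.1% of all genes. None of 8 upstream receptors was higher and 7 were lower. Of 9 neutrophil factors *Ccl3*, *Ccl4* and *Csf2* were higher and 6 lower. In spinous keratinocyte-like cells *Il1f6*, the IL-36 alpha gene, was higher (14.4 against 4.59 CPM), as the only 1 of 9 cytokines, with 5 lower. None of their 8 signalling genes or 6 upstream receptors was called, and 3.55% of all genes were higher and 15.2% lower. In basal and cycling basal keratinocyte-like cells, which held most of the epidermal *Cxcl1*, *Cxcl3* and *Cxcl5*, none of the genes in the 7 lists was higher, beside 0.747% and 0.874% of all genes. In each of the 2 types 10 of 11 trafficking genes and 5 of 9 cytokines were lower, beside 10.2% and 11.7% of all genes.

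Across 21 groups of cell type and layer and 11788 genes, the genes most like each member in log2(CPM + 1) are given by Pearson's r as a description. For *Cxcl1* they were *Ppic* (0.89), *Eif1a* (0.88) and *Cavin1* (0.86), for *Cxcl2* *C5ar1* (0.95), *Dusp1* (0.94) and *Clec4e* (0.93), and for *Cxcl3* *Gpat3* (0.83), *R3hdm4* (0.81) and *Cpeb2* (0.80). *Cxcl5* was most like *Cpxm1* (0.91), *Col1a1* (0.91), a gate marker of fibroblasts, and *Cxcl12* (0.90). *Cxcr2* was most like *Trim30b* (0.92), *Csf1* (0.91) and *Nfe2* (0.90). Among the members *Cxcl2* and *Cxcr2* had an r of 0.76, *Cxcl2* and *Cxcl3* 0.50, and *Cxcl1* and *Cxcl2* -0.38. Groups of 1 layer share a library and its free RNA.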

How the data were processed

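Sorted cells were processed by the authors with a 10x Genomics 3′ kit, and the deposited files are gene by barcode counts of UMIs per library, not normalized, made with Cell Ranger 3.0.2 per the file headers on mm10 per the labels. The study removed doublets and barcodes with fewer than 200 genes, over 5000 genes or over 5% of mitochondrial UMIs. Here the lower limit was the same, the mitochondrial limit was 10% and no upper limit was set. The members, marker lists and pathway lists were chosen with earlier results of these data known, and thresholds of the gate were set after the values were seen. The gate scored 21 marker lists. A type needed a score of at least 0.5, a lead of 0.15 and 3 detected markers, and cycling basal cells are a range of a score rather than a type. Types of under 20 cells were left out.

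UMIs were summed per type and divided by all UMIs of the type (CPM, counts scaled to 1000000 UMIs), with exact Poisson intervals. Shares had exact Clopper-Pearson intervals and ratios exact conditional intervals, all at 95%, and a count of 0 was given the limit of 3 counts. Cells were thinned to 1000 UMIs for shares of cells, which left out shallower cells, for example 29 of 635 dermal neutrophil-like cells. For each type against the other typed cells, genes with at least 20 UMIs were called past a fold of 2. Scrublet marked 0 dermal and 8 epidermal cells by its automatic threshold, which did not work for these libraries, so no doublet was removed except in an alternative that dropped the 180 and 139 highest scores. Alternatives were the filter of the study, this removal, clusters in place of gates (30 components, resolution 1, members left out, named where 40% of cells had a type), a stricter gate, the richest cell left out, means of per-cell CPM, other depths and other thresholds. *Retnlg* and marker list ratios, *Coch* splits, the 2 richest cells left out and thinning of keratinocytes to 10000 UMIs were added after the data were seen. Genes named are the 5 members, the fixed pathway lists (55 genes) and, per member, the 3 most alike genes with at least 100 UMIs, without mitochondrial, ribosomal protein, Gm and Rik genes. Leading genes of clusters and *Retnlg* were named after their values were seen. Some genes, and a cluster of no type, are not reported here. The IL-36 genes were matched by older symbols. Positions came from GENCODE (GRCm38) and promoters from RefSeq (GRCm38.p6), with no entry for *Cxcl5*. Python 3.11.15, numpy 2.4.6, scipy 1.17.1, pandas 2.3.3 and scanpy 1.11.5 were used. Interval and fold calculations were tested on simulated data.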

Additional observations from a re-analysis of the deposited data

Results flagged for a closer look

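Cells outside the filter, 629 dermal and 1085 epidermal barcodes that the comparisons leave out, also carried UMIs of all 5 genes above the limit that a count of 0 allows. In the dermis these cells had 45.1 CPM of *Cxcl1*, 1173 CPM of *Cxcl2*, 35.8 CPM of *Cxcl3*, 78.6 CPM of *Cxcl5* and 13.9 CPM of *Cxcr2*. In the epidermis they had 187 CPM of *Cxcl1*, 84.1 CPM of *Cxcl2*, 25.2 CPM of *Cxcl3*, 4.82 CPM of *Cxcl5* and 2.41 CPM of *Cxcr2*. The kept cells had 63.5, 2221, 63.0, 115 and 38.0 CPM in the dermis and 116, 66.2, 26.9, 2.50 and 3.97 CPM in the epidermis, in the same order of genes. Nearly all cells outside the filter exceeded the mitochondrial limit, 628 in the dermis and 1085 in the epidermis. The levels of the 4 ligands and the receptor were lower outside the filter in the dermis, and those of *Cxcl1*, *Cxcl2* and *Cxcl5* were higher outside it in the epidermis.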

How the results depend on the processing

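No paired analysis was possible because each layer has 1 library, and none could be left out. The share of basal keratinocyte-like cells in epidermal *Cxcl1*, 79.2%, was 74.2% under the filter of the study and 73.4% with clusters in place of gates. That in *Cxcl3*, 80.7%, was 55.6% and 78.8%. The share of neutrophil-like cells in dermal *Cxcl2*, 48.2%, was 48.8% under the filter of the study, 49.7% without the highest doublet scores, 56.8% with clusters, 47.4% with a stricter gate and 48.6% without the richest cell. Their share in *Cxcl3* was 55.8% with clusters and 51.0% without the richest cell, and in *Cxcr2* 65.1% without the highest doublet scores and 69.5% with clusters. The share of fibroblast-like cells in *Cxcl5* was 90.1% under the filter of the study, and in *Cxcl1* 44.9% without the richest cell. The epidermis over dermis ratio in neutrophil-like cells reversed with clusters for *Cxcl2* (0.79) and *Cxcr2* (0.82), as did the *Cxcl3* ratio of spinous over basal keratinocyte-like cells (1.18, against 0.20 by the gate and 0.43 under the filter of the study). The *Cxcl1* ratio of spinous over basal cells went from 0.38 to 0.19 with clusters. The cause was not tested. With means of per-cell CPM, *Cxcl5* in fibroblast-like cells was 520 CPM (919 pooled), and *Cxcl1* was 151 CPM in fibroblast-like cells (231 pooled) and 373 CPM in endothelial cell-like cells (598 pooled). Of the comparisons behind the main results, 20 moved by less than their counting interval, 15 by more and 0 reversed. Of the other comparisons, 103 moved by less than their counting interval, 53 by more, and 3 reversed as given above. Depth limits what an absence shows, most of all in the 29 neutrophil-like cells of the epidermis.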
